A study of Mus musculus with 3 samples.

Results

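The miRNAs miR-204 and miR-211 were followed in the postnatal retina of C57BL/6 mice, at the ages P1, P7 and P17 (days after birth). A miRNA is a short RNA cut from the stem of a hairpin transcript, and each hairpin can yield a 5p form from its left arm and a 3p form from its right arm. The 4 mature forms, mmu-miR-204-5p, mmu-miR-204-3p, mmu-miR-211-5p and mmu-miR-211-3p, were chosen by name from the 1915 mature miRNAs listed in each deposited table. The choice was made with the rise of miR-211 by P17 already known, so all values below are descriptions and the rise itself is no finding. All 4 passed a filter of a mean over the 3 libraries of at least 1 RPM (reads per 1000000 miRNA reads), which kept 648 miRNAs. MiR-211-3p passed it through the P17 library alone, since it was below 1 RPM at P1 and at P7.

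Each age was represented by 1 library made from the pooled retinas of 5 eyes of C57BL/6 mice, given as C57BL/6J in the study's methods, and the labels give no treatment, allele or sex. There were thus no replicate libraries, no test between ages was possible, and a difference in dissection or library preparation cannot be told apart from an effect of age. The P1 library had 11426320 miRNA reads, the P7 library 12759995 and the P17 library 11659722, so that 1 read was worth 0.0784 to 0.0875 RPM. All intervals below are 95% intervals for counting error only, because 1 library per age gives no spread between samples. Reads without molecular identifiers can be copies of the same molecule, so the intervals can be too narrow even for counting error.

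MiR-204 and miR-211 belong to 1 family, defined by a common 5p seed, the bases 2 to 8 that pair with target messenger RNAs. They are among the best known miRNAs of the retinal pigment epithelium, the pigmented sheet behind the photoreceptors, and miR-204 is also known in the ciliary body, the lens and the neural retina, where Müller glia express it. Both hairpins lie inside genes for cation channels of the TRPM group. Trpm1, the host of miR-211, encodes the channel that ON bipolar cells, second-order neurons of the retina, need for their light response, and it was first described in pigment cells. Trpm3 hosts miR-204.

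The mature sequences are shown because the counting had to separate 2 nearly identical 5p forms, whereas the 3p forms are easily told apart. They were taken from RefSeq (GRCm38.p6) and read 5′ to 3′, with the seed in capitals:
mmu-miR-204-5p: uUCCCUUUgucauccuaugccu
mmu-miR-211-5p: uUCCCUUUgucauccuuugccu
mmu-miR-204-3p: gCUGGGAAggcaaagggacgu
mmu-miR-211-3p: gCAAGGACagcaaaggggggc

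The 5p forms, each of 22 nt, differed by the single substitution A17U, counted from 1 at the 5′ end with the base of miR-204-5p first. Aligned from their first base, the 3p forms differed at 7 of 21 positions and had different seeds. Among the other miRNAs of the tables with a RefSeq sequence, 1 shares the 5p seed, miR-7670-3p, and 1 shares the seed of miR-204-3p, miR-7684-5p. Both had 0 reads in every library, which allows levels up to 0.263, 0.235 and 0.257 RPM at P1, P7 and P17 when 3 reads are taken as the smallest detectable number. Among these miRNAs, the reads of the 5p seed were thus those of miR-204-5p and miR-211-5p.

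The hairpins are shown with their mature forms in capitals, since the ratio of the arms is compared further on. Both are on the plus strand:
Mir204, chr19:22750605-22750672: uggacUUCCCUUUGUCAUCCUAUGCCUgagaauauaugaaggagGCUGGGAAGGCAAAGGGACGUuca
Mir211, chr7:64205806-64205911: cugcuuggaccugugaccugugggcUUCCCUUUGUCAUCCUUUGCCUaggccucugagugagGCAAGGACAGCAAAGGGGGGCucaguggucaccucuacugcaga

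In the GENCODE annotation of GRCm38, the same build as mm10, the hairpin of miR-204 was intronic in all 18 Trpm3 transcripts that span it. In 14 of them it lay in intron 6, 33462 bp long, 17433 bp after the preceding exon. Trpm3 (ENSMUSG00000052387) covers 856365 bp of chromosome 19, from 22139046 to 22995410. The hairpin of miR-211 was intronic in all 12 Trpm1 transcripts that span it. In 8 of these it also lay in intron 6, which is 3682 bp long, 1212 bp after the preceding exon. Trpm1 (ENSMUSG00000030523) covers 115941 bp of chromosome 7, from 64153835 to 64269775. Another annotated miRNA hairpin inside Trpm1, Mir6416, is on the opposite strand, and both of its mature forms had 0 reads at every age. Messenger RNA was not measured in these libraries, so the levels of the host genes are unknown here.

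MiR-204-5p, the main product of its hairpin, was among the most abundant miRNAs of the retina at all 3 ages. The P1 library held 167527 of its reads, which is 14661.5 RPM (Wilson interval 14592 to 14731). The P7 library held 88901, or 6967 RPM (6922 to 7013), and the P17 library 105162, or 9019 RPM (8965 to 9074). It held place 17 of the 1915 miRNAs at P1, place 18 at P7 and place 20 at P17. In RPM its level was highest at P1 and lowest at P7, and the intervals of the 3 libraries did not overlap. These intervals do not cover the choice of scaling, on which the order of P1 and P17 depended, as given further on.

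MiR-204-3p, the minor arm of the same hairpin, followed the same order at a level about 2 orders of magnitude lower. It had 1176 reads and 103 RPM at P1 (97.2 to 109), 442 reads and 34.6 RPM at P7 (31.6 to 38.0), and 658 reads and 56.4 RPM at P17 (52.3 to 60.9). In RPM it too was highest at P1 and lowest at P7, with no overlap between the intervals, and its order of P1 and P17 also depended on the scaling.

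MiR-211-5p, the main product of the Trpm1 hairpin, was a minor partner at P1 and P7 and came close to miR-204-5p at P17. The P1 library held 6281 of its reads, or 549.7 RPM (536 to 563), and the P7 library 3300, or 259 RPM (249.9 to 268). With 61966 reads in the P17 library it stood at 5314.5 RPM (5273 to 5356). Its place among the 1915 miRNAs went from 119 at P1 and 127 at P7 to 25 at P17. The P17 library stood far above both others, and P7 was again the lowest.

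MiR-211-3p, its minor arm, was almost undetected before P17. It had 7 reads at P1 (0.61 RPM, interval 0.297 to 1.26) and 8 reads at P7 (0.63 RPM, interval 0.318 to 1.24). These levels overlapped and were only about 2 to 3 times the level of 3 reads. At P17 it had 762 reads and 65.4 RPM (60.9 to 70.2), which overlapped slightly with the interval of miR-204-3p in the same library. In the plot of the 4 levels, the lines of miR-204 stay within about 3-fold while those of miR-211 climb after P7.

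**Figure D1:**
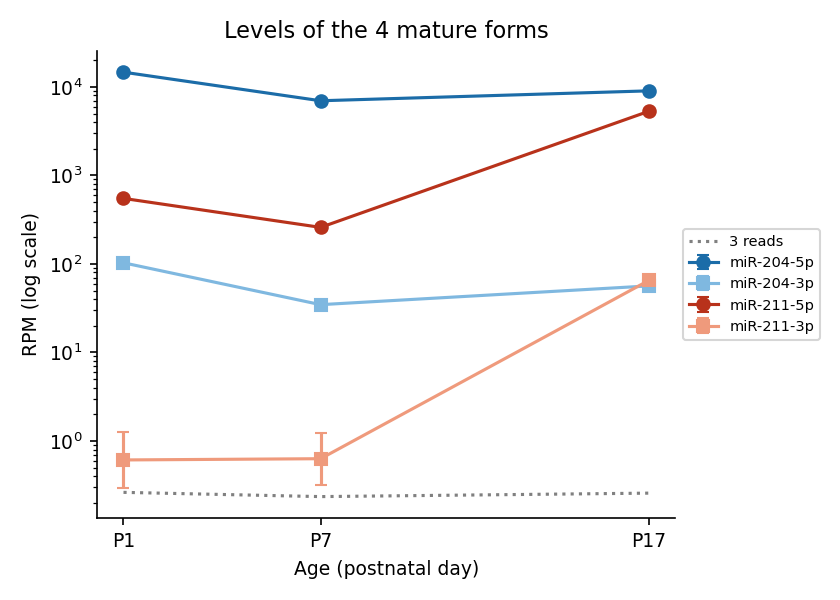
Level in RPM (log axis) of each mature form at P1, P7 and P17, with 1 library per age; bars are 95% Wilson intervals, most of them smaller than the points, and the dotted line is the level of 3 reads. MiR-204-5p stays between 6967 and 14661.5 RPM, whereas miR-211-5p goes from 259 RPM at P7 to 5314.5 RPM at P17 and miR-211-3p from 0.63 to 65.4 RPM.

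Between P1 and P7, 3 of the 4 forms were over 2-fold lower, and so were 44.8% of all 648 miRNAs past the filter. No member was over 2-fold higher, against 3.09% of the 648. Changes are given as differences of log2(RPM + 1), a scale on which the added 1 RPM shrinks the change of rare miRNAs. MiR-204-5p changed by -1.07, miR-204-3p by -1.54, miR-211-5p by -1.08 and miR-211-3p by 0.02. The median change of the 648 miRNAs was -0.87, so miR-204-5p and miR-211-5p, at -0.21 and -0.22 relative to that median, moved with the bulk of the miRNAs. MiR-204-3p was 0.68 below the median. Under median-of-ratios size factors, a scaling that sets the typical miRNA near no change, no member was over 2-fold lower at P7, and the change of miR-204-5p was -0.11 and that of miR-211-5p -0.13.

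Between P7 and P17 the 2 hairpins parted. Both forms of miR-211 were over 2-fold higher, against 14.0% of the 648 miRNAs, and neither form of miR-204 was. No member was over 2-fold lower, against 11.6% of the 648. MiR-211-5p rose by 4.36 on the log2(RPM + 1) scale, a fold of 20.5. Chosen with this rise known, it had place 3 among the changes of the 648, counted from the highest. MiR-211-3p had the highest, 5.35, a rank that its entry through the P17 library alone favoured. Without a pseudocount its log2 ratio was 6.70 (exact binomial interval 5.72 to 7.92), and the width of that interval comes from the 8 reads at P7. The same ratio for miR-211-5p was 4.36 (4.31 to 4.41). MiR-204-5p changed by 0.37, and its ratio without a pseudocount had an interval of 0.36 to 0.39. MiR-204-3p changed by 0.69 (ratio without a pseudocount 0.70, interval 0.53 to 0.88). The median of the 648 miRNAs was -0.05 at this step, so these changes were nearly the same relative to it.

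From P1 to P17, the 2 forms of miR-211 were over 2-fold higher, against 10.5% of the 648 miRNAs, and no member was over 2-fold lower, against 46.8%. MiR-211-5p changed by 3.27 and miR-211-3p by 5.36 on the log2(RPM + 1) scale. MiR-204-5p changed by -0.70 and miR-204-3p by -0.86, while the median of the 648 was -0.91. Relative to that median, miR-204-5p was 0.21 higher and miR-204-3p 0.05 higher. The sign of the change of both miR-204 forms depended on the scaling, with 0.34 for miR-204-5p and 0.18 for miR-204-3p under median-of-ratios size factors. In the plot of both steps, the miR-204 forms lie within the cloud of the other miRNAs and the miR-211 forms at its upper edge. MiR-29a-3p, at 4.37 from P7 to P17, is at the height of miR-211-5p there. The 2 differ in the first step, at 0.64 for miR-29a-3p and -1.08 for miR-211-5p.

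**Figure D2:**
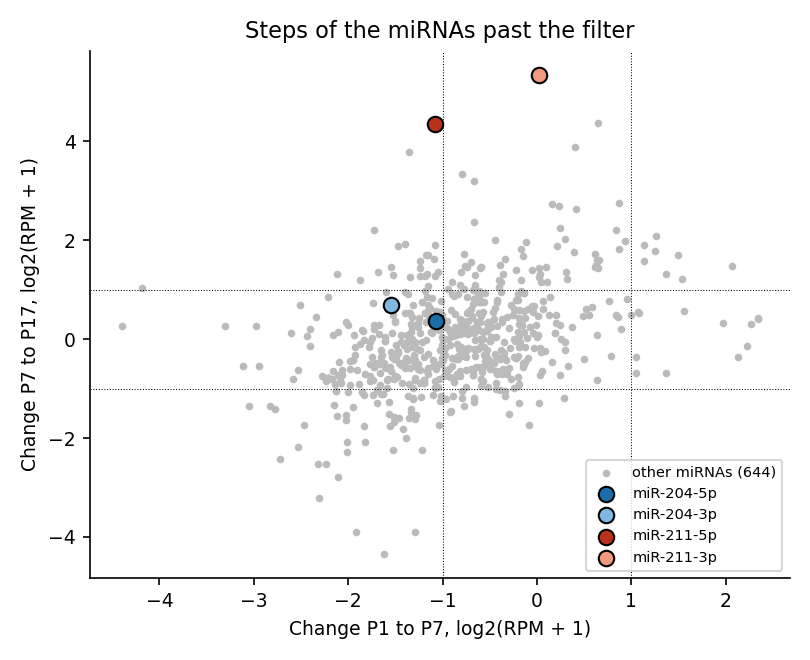
Change over the first interval, P1 to P7 (horizontal), and over the second, P7 to P17 (vertical), on the log2(RPM + 1) scale, 1 point for each of the 648 miRNAs past the filter, with dotted lines at 2-fold changes. MiR-204-5p (-1.07, 0.37) and miR-204-3p (-1.54, 0.69) lie in the cloud, and miR-211-5p (-1.08, 4.36) and miR-211-3p (0.02, 5.35) lie at its upper edge.

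**Figure D3:**
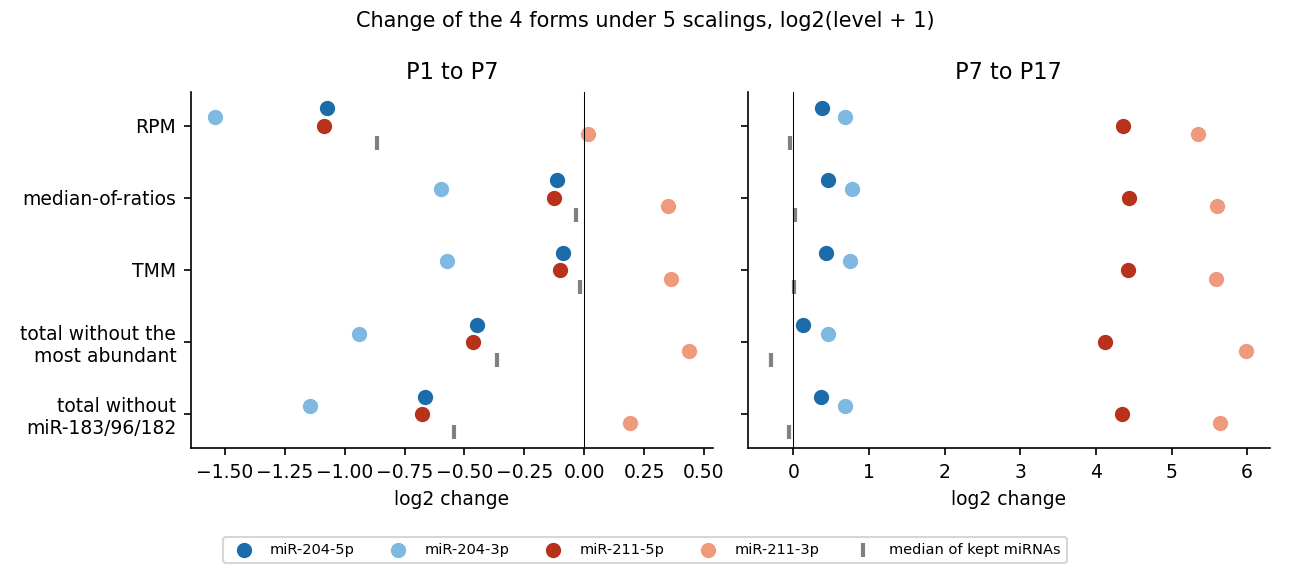
Change of the 4 forms (points) and median of the 648 miRNAs (grey ticks) over P1 to P7 (left) and P7 to P17 (right) under 5 scalings, as log2(level + 1). The negative change of 3 forms at P7 moves towards 0 together with the median, for example from -1.07 to -0.11 for miR-204-5p, whereas miR-211-5p rises by at least 4.11 and miR-211-3p by at least 5.35 after P7 under each of the 5.

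The share of miR-211 among the reads of the pair does not depend on any scaling, since both forms are counted in the same library. Among the 5p reads it was 3.61% at P1 (exact binomial interval 3.53 to 3.70), 3.58% at P7 (3.46 to 3.70) and 37.1% at P17 (36.8 to 37.3). The P1 and P7 shares overlapped, and P17 stood apart. There were 26.7 reads of miR-204-5p for each read of miR-211-5p at P1, 26.9 at P7 and 1.70 at P17. Had the P7 proportion held, the P17 library would contain 3904 reads of miR-211-5p, and 61966 were counted, 15.9 times as many.

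Among the 3p reads, too, the miR-211 share was highest at P17. MiR-211-3p passed the filter through the P17 library alone, and the members were chosen with the rise of miR-211 known. The 3p shares are thus a description and no separate support for that rise. The share of miR-211-3p was 0.592% at P1 (7 of 1183 reads, interval 0.238 to 1.22), 1.78% at P7 (8 of 450, interval 0.771 to 3.47) and 53.7% at P17 (762 of 1420, interval 51.0 to 56.3). The intervals of P1 and P7 overlapped. Because the 5p forms differ by 1 base, how the authors' counting split reads between them is uncertain, and the shares of the 5p arm carry that uncertainty. The 3p arm, with 7 differing positions, showed a miR-211 share below that of the 5p arm at P1, with intervals that did not overlap, and above it at P17.

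The summed 5p reads do not depend on how reads were split between the 5p forms if each read was counted once, which was not tested. Among the 169 pairs of miRNAs with a common seed compared further on, the 2 pairs with the same mature sequence had equal counts in every library, and none of the other 167 did. Equal counts can arise when a read is counted for every form it matches, so single counting is not assured for the sum. Only miRNAs with a RefSeq sequence were compared, and a search for equal counts misses forms that share only part of their reads. Together miR-204-5p and miR-211-5p reached 15211 RPM at P1, were at 7226 RPM at P7 and stood at 14334 RPM at P17, or 1.52%, 0.723% and 1.43% of the miRNA reads. The sum was thus nearly equal at P1 and P17, with a log2(RPM + 1) change of -0.09, although its composition differed. From P7 to P17 it rose by 0.99, and miR-211-5p contributed 5056 RPM of that gain against 2052 RPM for miR-204-5p. Under median-of-ratios size factors the sum changed by 0.96 from P1 to P17, so the equality of P1 and P17 holds for RPM and not under that scaling.

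**Figure D4:**
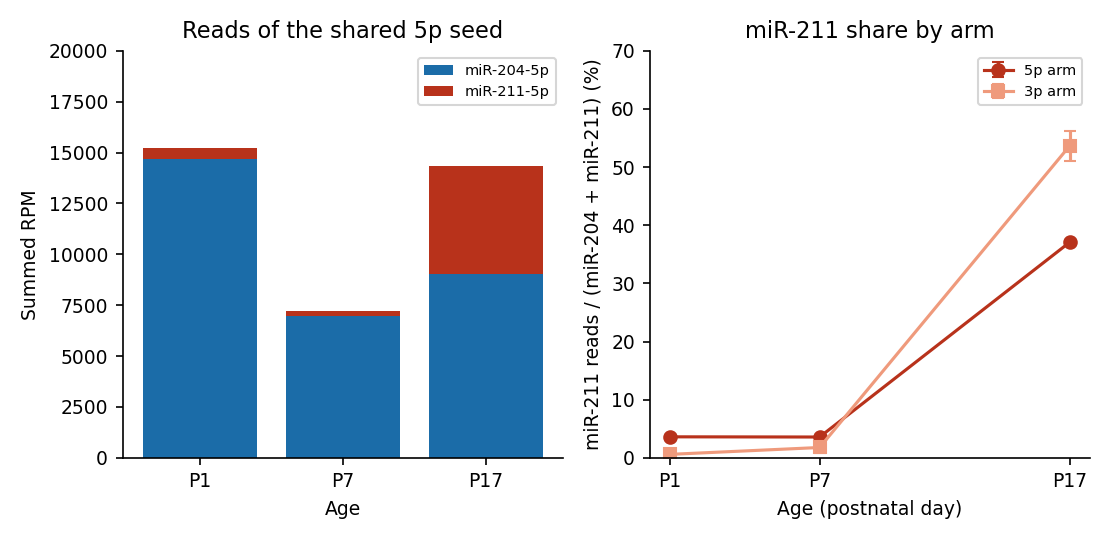
Summed RPM of the 5p seed at each age, stacked as miR-204-5p (blue) and miR-211-5p (red), on the left, and on the right the share of miR-211 among the miR-204 and miR-211 reads of each arm, with exact 95% binomial intervals. The sum is 15211, 7226 and 14334 RPM, and the miR-211 share stays at 3.61% and 3.58% in the 5p arm before it reaches 37.1%, with 53.7% in the 3p arm.

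Such a shift within a seed was compared with the other seeds. Of the 648 miRNAs, 540 were matched by name to a RefSeq sequence, and 169 pairs among them shared bases 2 to 8 and had reads in every library. Pairs that share a miRNA are not independent of each other. The log2 ratio of miR-204-5p to miR-211-5p changed by 3.99 from P7 to P17, in place 2 of the 169 pairs, whose median absolute change was 0.50. The members were chosen with the rise of miR-211 by P17 known, so a high place at this step was favoured by that choice and is no finding. The pair in place 1, miR-149-3p and miR-1943-5p, was named after its values were seen, and its change rested on 1 read of miR-149-3p at P17. From P1 to P7 the ratio of the miR-204 and miR-211 forms changed by 0.01, in place 164, against a median of 0.54. The read ratio of this pair was thus nearly constant in the first interval. That constancy carries the uncertainty of how reads were split between the 5p forms, given above. In the 3p arm the miR-211 share was 0.592% at P1 and 1.78% at P7, from 7 and 8 reads of miR-211-3p.

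The ratio of the 5p to the 3p arm of each hairpin is likewise free of the scaling. For miR-204 there were 142.5 5p reads per 3p read at P1 (exact interval 135 to 151), 201 at P7 (183.2 to 221) and 160 at P17 (148 to 173). The P7 value was the highest, and its interval overlapped with neither of the others. On the log2 scale the change from P1 to P17 was 0.17, next to the median, 0.16, of the 190 hairpins with both arms past the filter and read at both ages.

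For miR-211 the ratio was 897 at P1 (435 to 2233), 412.5 at P7 (209 to 956) and 81.3 at P17 (75.7 to 87.5). The intervals of P1 and P7 overlapped, and P17 was below both. The log2 change was -2.34 from P7 to P17 and -3.46 from P1 to P17. No rank among hairpins is given, because miR-211-3p passed the filter through P17 alone and a lower ratio at P17 was favoured by that. With 1 RPM added to each level, the change from P1 to P17 was -2.09, so its size rests on the few 3p reads before P17. The 5p counts carry the uncertainty of the split between miR-204-5p and miR-211-5p given above.

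**Figure D5:**
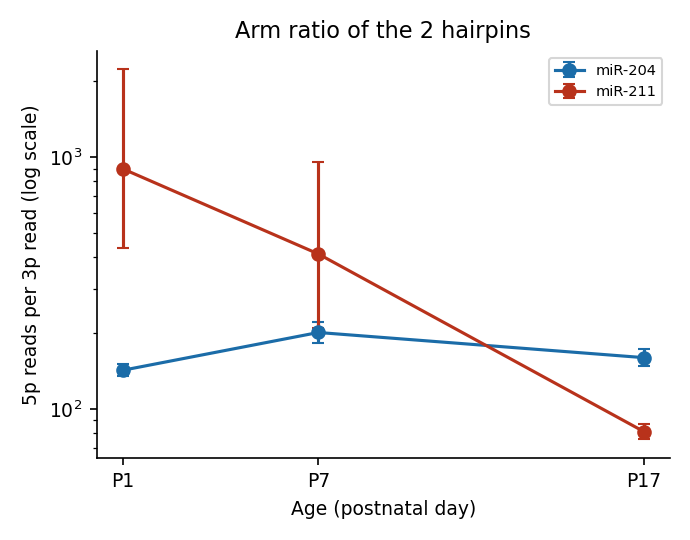
Number of 5p reads per 3p read (log axis) of the miR-204 and miR-211 hairpins at each age, with exact 95% binomial intervals. MiR-204 stays between 142.5 and 201, and miR-211 goes from 897 and 412.5 to 81.3 at P17, with wide intervals at P1 and P7 that reflect 7 and 8 reads of its 3p form.

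The miRNAs with the most similar course were found by the Euclidean distance between the 2 step changes on the log2(RPM + 1) scale, over 3 libraries, with the members left out. With 3 points per miRNA likeness is easy to reach, so it is given as a description. Nearest to miR-204-5p were miR-412-3p (distance 0.02), miR-1198-5p (0.05) and miR-296-5p (0.11). Nearest to miR-204-3p were miR-466i-5p (0.19), miR-669p-3p (0.20) and miR-877-3p (0.21).

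Nothing lay as close to the miR-211 forms. Nearest to miR-211-5p were miR-29b-3p (0.64), with 5.32 RPM at P7 and 85.5 RPM at P17, miR-5119 (1.05), with 1 read at P7, and miR-29c-3p (1.23). Nearest to miR-211-3p were miR-29a-3p (1.16), which went from 49.6 to 1045 RPM, miR-375-3p (1.51), from 12.4 to 197 RPM, and miR-29b-3p (2.09). The miR-29 miRNAs are known to target extracellular matrix genes, and miR-375 is best known from endocrine cells. The forms of 1 hairpin were closer to each other than to those of the other, at 0.57 for the 2 arms of miR-204 and 1.48 for those of miR-211, against 3.98 between the 5p forms and 4.91 between the 3p forms. The P7 to P17 step holds the rise of miR-211 that was known when the members were chosen. That order was thus favoured by the choice and is no finding. MiR-211-3p also passed the filter through the P17 library alone. Some other miRNAs lay nearer to a form than its second arm did, such as miR-29a-3p to miR-211-3p (1.16) and miR-412-3p to miR-204-5p (0.02).

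The libraries carried the miRNAs known from retina. The 5p forms of the sensory cluster miR-182, miR-183 and miR-96, abundant in photoreceptors, had summed levels of 77854, 304394 and 301141 RPM at P1, P7 and P17. Over the step at which miR-211 rose, miR-183-5p went from 81732 to 121650 RPM (log2 change 0.57), miR-182-5p from 181186 to 141917 RPM (-0.35) and miR-96-5p from 41477 to 37574 RPM (-0.14). The neuronal miR-124-3p rose at that step, from 2055 to 12777 RPM, a log2 change of 2.64, the only one of 3 neuronal miRNAs to do so by over 2-fold, while the sum of the 3 went from 133544 to 90971 RPM. Of 4 miRNAs associated with Müller glia, miR-9-5p, miR-125a-5p, miR-125b-5p and miR-181a-5p, none changed over 2-fold from P7 to P17, and their sum was 198848 and 176320 RPM; miR-9-5p is also in the neuronal list.

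Levels of miRNAs from other tissues and cell types of the eye were compared because miR-204 and miR-211 are also strong in pigment epithelium, which lies against the retina at dissection. No list here separates pigment epithelium from retina, since its best known miRNAs are the members themselves. Of 7 miRNAs of lens, cornea and surface epithelium, 1 was over 2-fold higher at P17 than at P7, miR-184-3p, which went from 119 to 569 RPM. The sum of the list was 400.1 RPM at P1, 276 at P7 and 652.5 at P17, with none of the 7 at 0 in any library, and miR-205-5p, an epithelial miRNA, was at 0.31 RPM at P7 and 0.69 RPM at P17. From P7 to P17, miR-203-3p fell from 149.9 to 75.7 RPM and miR-200c-3p from 3.37 to 1.63 RPM. The others besides miR-184-3p rose within 2-fold on the log2(RPM + 1) scale, such as miR-200b-3p from 1.8 to 2.83 RPM. The higher sum at P17 was thus that of miR-184-3p. Vessels are part of the retina, from which the study isolated endothelial cells, so their miRNAs need not come from another tissue. Both miRNAs of endothelium and both of mural cells were over 2-fold higher at P17 than at P7, with sums of 3643 and 8530 RPM for endothelium and 376 and 1492 RPM for mural cells. The red blood cell list of 4 went from 117 to 160 RPM with 2 over 2-fold higher, the muscle list of 3 from 89.97 to 240.1 RPM with 2 higher, and the immune list of 3 from 10.5 to 26.8 RPM with 1 higher. The part of any of these tissues or cell types in the rise of miR-211 was not tested. In whole retina, more cells of a type and more RNA per cell cannot be told apart either.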

How the data were processed

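MiRNAs were sequenced from pooled retinas, 1 library per age. According to the paper's methods, the authors trimmed adaptors and discarded poor reads among reads of 50 nt, then mapped to mm10 with HISAT2, whereas the submitters' processing notes list FastQC and BWA. The miRNA annotation and the counting rule are not given in the sources used here. The authors deposited a read count per mature miRNA, not normalized, and an RPM value, which equals the count per 1000000 miRNA reads of its library to within 0.0192 RPM.

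RPM values were used as deposited, with a pseudocount of 1 RPM before log2. The filter kept means of 1 RPM or more, and over 2-fold was the criterion of change; without replicates there is no p-value. Levels have 95% Wilson intervals, and ratios and shares exact binomial ones. Names followed a rule: the members, miRNAs sharing their seeds, marker lists, and the 3 miRNAs nearest in pattern. The members and lists were chosen with earlier results of these data known. Alternatives were pseudocounts of 0.1 and 5 RPM, median-of-ratios size factors (1.52, 0.873 and 0.752 at P1, P7 and P17, from 644 miRNAs), TMM factors (1.60, 0.808 and 0.774), totals that leave out the leading 10 miRNAs of every library (13 in all) or the sensory cluster (miR-182, miR-183, miR-96), filters, and folds of 1.5 and 4. Mir6416, the constant-proportion figure and the comparison of seed pairs, with the counts of identical sequences, were added after the data were seen. Steps were tested on simulated counts with counting error only. The most abundant miRNAs at P1 were left unchanged there, so a shift of the library total by leading miRNAs was not simulated. Software was edgeR 4.0.16 in R 4.3.3, and Python 3.11.15 with scipy 1.17.1, numpy 2.4.6, matplotlib 3.10.9 and pandas 2.3.3.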

Additional observations from a re-analysis of the deposited data

How the results depend on the processing

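Both forms of miR-211 were over 2-fold higher at P17 than at P1 and than at P7 under each alternative, the fold criterion of 4 included. From P1 to P17, the share of the 648 miRNAs called higher was 25.5% under size factors, 25.5% under TMM factors and 5.86% at a fold of 4. From P7 to P17 the shares were 16.0% under size factors, 15.7% under TMM factors and 2.62% at a fold of 4, the lowest of the alternatives. The highest was 22.7%, at a fold of 1.5. MiR-211-3p passed the filter through the P17 library alone. The size of the changes moved with the scaling, by different amounts for abundant and rare forms on the log2(level + 1) scale, and the shares of miR-211 in each arm do not depend on it. From P1 to P17, the change of miR-204-5p was -0.70 in RPM, 0.34 under median-of-ratios size factors, 0.35 under TMM factors, -0.32 when the total left out the 10 leading miRNAs of every library and -0.30 when it left out the sensory cluster miR-182, miR-183 and miR-96. In the same order, miR-204-3p changed by -0.86, 0.18, 0.18, -0.49 and -0.46, miR-211-5p by 3.27, 4.32, 4.32, 3.65 and 3.67, miR-211-3p by 5.36, 5.95, 5.95, 6.42 and 5.83, and the summed 5p reads by -0.09, 0.96, 0.96, 0.29 and 0.31. MiR-211-3p changed by 6.53 with a pseudocount of 0.1 RPM and 3.65 with 5 RPM. The number of members over 2-fold lower at P7 than at P1, 3 with RPM, was 0 with size factors, TMM factors, the total without the leading miRNAs or a fold of 4 (71, 69, 149 and 56 of the 648 miRNAs), and 1 (185 of the 648) when that cluster was left out. At a fold of 1.5, 2 members were lower at P17 than at P1, against 0, and so were 388 of the 648. The arm ratio of miR-211 changed by -2.09 with 1 RPM added, against -3.46. Under size factors, 1 of the 3 miRNAs nearest to each miR-204 form was the same. Depth limits miR-211-3p, with 7 and 8 reads before P17. No paired analysis was possible because there is 1 library for each age.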
